A study of Homo sapiens with 6 samples.

Results

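Loops of chromatin were listed around the HOXA and HOXD clusters, the homeobox gene clusters on chromosomes 7 and 2. The members were all rows of the loop list, in hg19 coordinates, with at least 1 anchor in chromosome 7 from 26200001 to 28200000 or chromosome 2 from 176000001 to 178000000. This rule took in 125 of 46849 loops, 70 at HOXA and 55 at HOXD. The HOXA cluster was taken as 27130001 to 27250000 and the HOXD cluster as 176950001 to 177060000. In the text, the low flank holds the coordinates below a cluster and the high flank those above it. The data come from Micro-C, a form of Hi-C that cuts chromatin with micrococcal nuclease before ligation. They were made in HAP1, a human line derived from the leukaemia line KBM-7 and known for its near-haploid chromosomes, and the cells used here were diploid ones sorted by a Hoechst stain. The labels name no edit and no other treatment, and the chromatin was fixed with formaldehyde and DSG. The 6 replicates form 1 group and are pooled in 1 list, so no spread between replicates exists, no difference could be tested, and each value below is a description of this list.

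HOX genes encode homeodomain transcription factors that give cells their place along the head-to-tail axis of the embryo. Their order on the chromosome follows the order in which they are used: low-numbered genes act early and towards the head, and group 13 genes act late and at the far end of the axis and of the limbs. In the mouse limb, the genes of the HoxD cluster are known to contact long regulatory domains on either side of the cluster, one on the Hoxd13 side and one on the Hoxd1 side. EVX1 and EVX2, homeobox genes related to fly even-skipped, sit beside the group 13 genes.

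No hg19 positions of genes were used here, so that anchors are not assigned to single genes. The order of the 21 member genes was read from the RefSeq table of GRCh38.p14, in which all 21 were found. On chromosome 7 the order from low to high coordinates was HOXA2, HOXA3, HOXA4, HOXA5, HOXA6, HOXA7, HOXA9, HOXA10, HOXA11, HOXA13 and EVX1. On chromosome 2 it ran the other way, from EVX2 and HOXD13 through HOXD12, HOXD11, HOXD10, HOXD9, HOXD8, HOXD4 and HOXD3 to HOXD1. The group 13 end is thus the high end of the HOXA cluster and the low end of the HOXD cluster. The next protein-coding genes are named outside the run of HOX and EVX genes, which was not placed against the hg19 cluster intervals. On the low side of HOXA lie SKAP2, an adaptor of immune cell signalling, SNX10, a sorting nexin, and CBX3, encoding the heterochromatin protein HP1 gamma. On the high side of HOXA lie HIBADH, an enzyme of valine breakdown, TAX1BP1, an autophagy receptor, and JAZF1, a zinc finger gene. Below HOXD lie LNPK, which shapes junctions of the endoplasmic reticulum, and ATP5MC3, a subunit of ATP synthase. Above it lie MTX2, a mitochondrial outer membrane protein, HNRNPA3, an RNA-binding protein, and NFE2L2, the transcription factor of the antioxidant response.

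The stretches before the starts of 3 members are shown: HOXA13 and HOXD13, because they stand at the cluster ends that the loop pattern turns on, and 1 of the 2 starts of HOXA10, because it holds a match to a CTCF-like core. CTCF is the DNA-binding protein found at many loop anchors. The sequences are the 250 bases upstream of the RefSeq start (GRCh38.p14), 5′ to 3′ on the gene's strand, with capitals for TATAAA and for the CTCF-like core on either strand. That core was searched as CCA, any 2 bases, AG, any 2 bases and GGC.
HOXA13 (chromosome 7, minus strand): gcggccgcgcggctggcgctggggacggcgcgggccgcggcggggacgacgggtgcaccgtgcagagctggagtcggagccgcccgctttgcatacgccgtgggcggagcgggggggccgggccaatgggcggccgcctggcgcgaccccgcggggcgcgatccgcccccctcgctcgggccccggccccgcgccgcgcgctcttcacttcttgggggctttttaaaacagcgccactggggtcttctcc
HOXD13 (chromosome 2, plus strand): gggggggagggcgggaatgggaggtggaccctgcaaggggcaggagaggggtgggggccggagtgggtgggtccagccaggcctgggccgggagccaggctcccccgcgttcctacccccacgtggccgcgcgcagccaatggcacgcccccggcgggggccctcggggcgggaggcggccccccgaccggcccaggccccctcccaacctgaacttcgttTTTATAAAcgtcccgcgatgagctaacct
HOXA10 (chromosome 7, minus strand): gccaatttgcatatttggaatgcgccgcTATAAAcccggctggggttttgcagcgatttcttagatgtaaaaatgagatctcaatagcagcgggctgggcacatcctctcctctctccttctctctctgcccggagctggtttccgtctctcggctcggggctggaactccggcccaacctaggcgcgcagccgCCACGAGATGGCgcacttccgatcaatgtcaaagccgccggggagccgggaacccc

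HOXA13 and HOXD13 were GC-rich before their starts, with 78% and 74% G and C and 40 and 21 CpG sites. The CTCF-like core occurred in 1 of 26 member windows (19 genes had at least 1 window, and several had more than 1 start), that of HOXA10 shown above. Over all 35116 windows of the table, 2.02% held it. TATAAA occurred in 6 of the 26 windows (23.1%) and in 10.7% of all windows. In the HOXD13 window it was found on both strands, and the 2 matches overlap. The ratio of observed to expected CpG sites had a median of 0.886 in member windows and of 0.558 in all windows. Such matches describe letters only, and whether a loop anchor covers these windows was not analysed here.

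Each cluster held many loop ends for its length. In the 120 kb of the HOXA cluster 24 loops had an anchor, and in the 110 kb of the HOXD cluster 20 loops did. Tiles of the same lengths with at least 1 anchor, laid over all chromosomes, held a median of 4 loops (quartiles 2 and 6, highest 26). Of 18645 tiles of 120 kb, 2 held at least as many loops as HOXA, and of 19833 tiles of 110 kb, 12 held at least as many as HOXD. The whole windows stood out less: HOXA had 70 loops and HOXD had 55, against a median of 38 (quartiles 24 and 48) over 1436 tiled windows of 2 Mb. At least 70 loops were found in 49 of these tiled windows and at least 55 in 233.

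The loops of each cluster divided by side. In the HOXA cluster, 12 loops ran to the low side and 11 to the high side. All 12 that ran low ended between 27135001 and 27210000, and all 11 that ran high began between 27225001 and 27250000. The anchors of the 2 sides were thus 15 kb apart, at about 80 to 95 kb from the low end, and did not overlap. Loops to the high side thus came from the last 25 kb, at the HOXA13 end. Most loops to the low side ended close to that divide: 9 of the 12 lay above the middle of the cluster (27190000), in the 4 bins between 27190001 and 27210000, and 3 lay near its low end, at 27135001 to 27140000.

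The HOXD cluster showed a division too, with the gene order turned round. Its 10 loops to the low side ended between 176950001 and 176965000, in the first 15 kb at the HOXD13 end. Its 9 loops to the high side began between 176990001 and 177055000. Here the anchors were 25 kb apart, at 15 to 40 kb from the low end. Of the high-side anchors, 8 of 9 lay in the middle of the cluster, between 176990001 and 177010000, and 1 lay towards HOXD1, at 177050001 to 177055000. In each cluster, then, the listed loops of the group 13 end ran to the flank beyond it. Loops to the opposite flank began on the other side of the divide, mostly in the middle part of the cluster. With overlapping anchors merged, 1 of 7 anchors in the HOXA cluster (14.3%) and 0 of 9 in the HOXD cluster held loops in both directions. Only 20.3% of all anchors in the list did so, and anchors with loops to 1 side are thus common. How often other stretches of this length divide by side was not analysed.

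**Figure D1:**
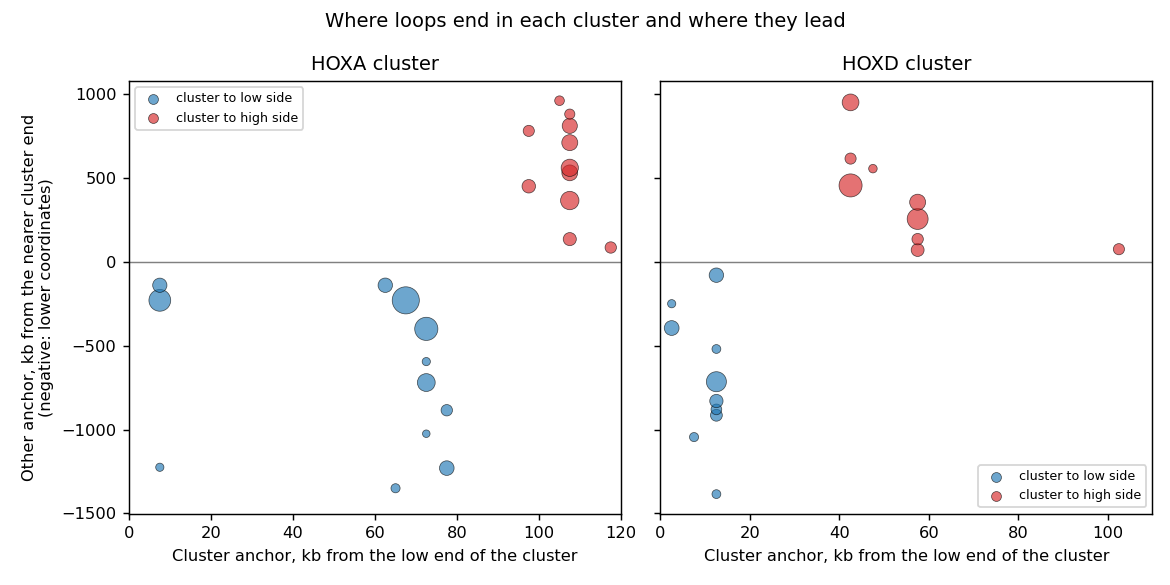
Position of each loop's anchor in the cluster (x axis, kb from the low end of the cluster) against the distance of its other anchor from the nearer cluster end (y axis, kb, negative for lower coordinates), with 1 point per loop and its area proportional to the observed contact count. Points below 0 and points above 0 occupy separate stretches, whose anchors are 15 kb apart in HOXA (left) and 25 kb apart in HOXD (right), edge to edge.

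Few loops passed over a whole cluster, as in many stretches of that length. At HOXA 1 loop did so, from 25890001 to 25900000 to 27770001 to 27780000, with 11 contacts (exact Poisson 95% interval 5.49 to 19.7, counting error only) against 2.66 expected from the donut around it. Its highest q-value in the authors' deposited table was 0.486, and it had been merged from 2 pixels. At HOXD the count was 0. Of the tiles of 120 kb, 34.3% were passed over by at most 1 loop, and of those of 110 kb, 17.3% by 0 loops, with a median of 3 for both lengths. Crossings were counted at positions 10 kb apart. In the HOXA cluster the fewest were at 27210000 and 27220000, which 1 loop crossed, while 29 loops lay wholly within 1 Mb below the first of these and 24 within 1 Mb above it. In the HOXD cluster 0 loops crossed the 3 positions between 176970000 and 176990000, with 16 loops below the first and 21 above it. Of 196850 such positions on all chromosomes with at least 5 loops within 1 Mb on each side, 4.89% were crossed by 0 loops and 11.5% by at most 1, and the median was 5. Within the clusters, at most 1 loop crossed 2 of 13 positions at HOXA (15.4%), which lies near the share of all positions. At HOXD, 0 loops crossed 3 of 12 positions (25%). In each cluster these positions are adjacent and lie in the gap between the sides. They are thus 1 stretch per cluster and not separate observations, so these shares cannot be read as an excess. Outside the clusters, the lowest crossing was 9 in the low flank of HOXA and 1 in its high flank, near the window's high edge between 28140000 and 28160000. It was 5 and 7 in the low and high flanks of HOXD.

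**Figure D2:**
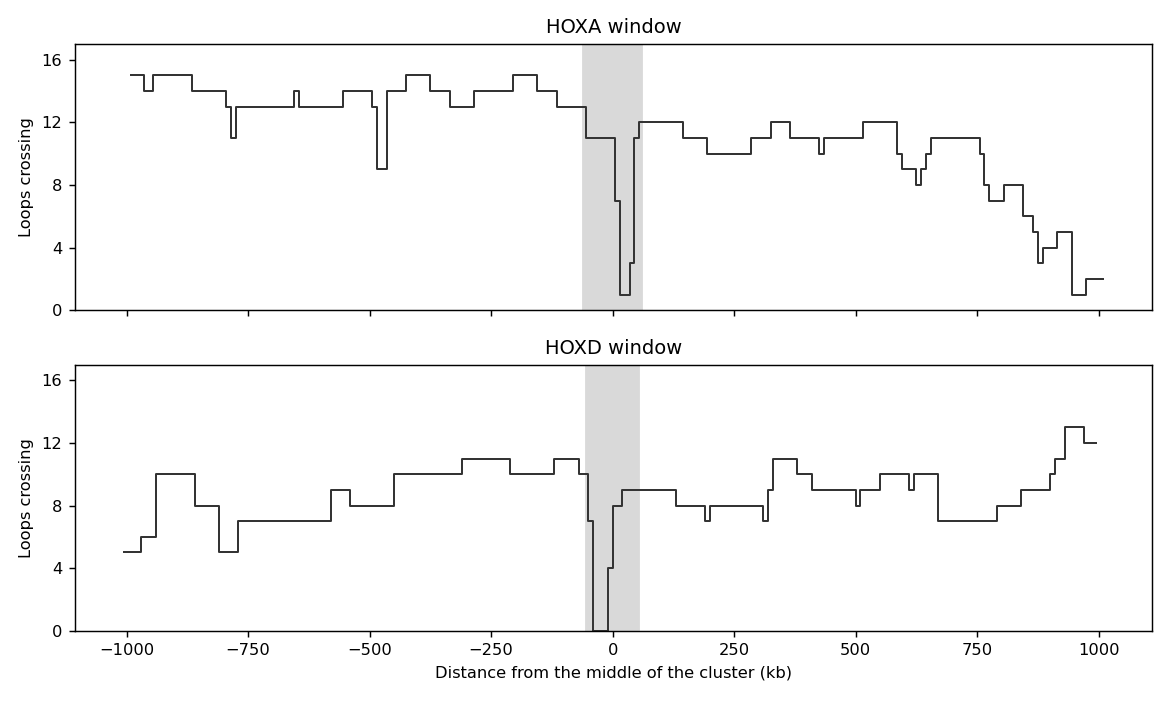
Number of loops that cross each position, taken every 10 kb (y axis), along both windows (x axis, kb from the middle of the cluster), with the cluster shaded. The line falls to 1 inside the HOXA cluster and to 0 inside the HOXD cluster, and lies between 9 and 15 in the low flank of HOXA and between 5 and 13 in the flanks of HOXD, while in the high flank of HOXA it also falls to 1 near the window's edge.

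The sharpness of this division is limited by the size of the loops. A loop can merge several significant pixels. Among these loops 1, at HOXD, was a single pixel and 8 merged 2 pixels. Their median radius was 15 kb for HOXA and 15.1 kb for HOXD, and 12 of the 23 HOXA loops and 2 of the 19 HOXD loops had a radius of at least the gap. With the centres of the merged pixels in place of the anchors, the sides were 9.25 kb apart in HOXA and 30 kb apart in HOXD.

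The HOXA loop with the most contacts went to the near low flank, where SKAP2 is the next protein-coding gene outside the cluster. The loop between 26895001 to 26900000 and 27195001 to 27200000 had 141 contacts (interval 119 to 166), the highest count of both windows, against 16.8 expected. Its cluster anchor begins 65 kb from the low end, past the middle of the cluster. From the same flank anchor, 91 contacts (73.3 to 112) ran to 27135001 to 27140000, close to the low end of the cluster, against 18.3 expected. Within the cluster, 27135001 to 27140000 and 27190001 to 27195000 were joined by 106 contacts (86.8 to 128) over 55 kb, against 29.9 expected, the single loop with both anchors inside. With the neighbouring bins from 27190001 to 27200000 merged into 1 anchor, these 3 sites formed a closed triangle. A second triangle joined the same cluster anchors with the flank anchor at 26980001 to 26990000, through 39 and 40 contacts. The ratio of observed to expected contacts was 8.39 and 4.98 for the loops with 141 and 91 contacts, and 2.56 and 3.27 for those with 39 and 40. Higher ratios were found farther out.

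Farther out, low-side loops gathered on the neighbouring bins from 27200001 to 27210000. The bin at 27200001 to 27205000 took 4 loops, with 103 contacts (84.1 to 125) from 26725001 to 26730000 against 9.86 expected and 61 (46.7 to 78.4) from 26405001 to 26410000 against 3.51. The loop from 26405001, over 795 kb, had the highest ratio of observed to expected contacts in the HOXA window, 17.4. It exceeded 98.2% of 1931 loops with the same anchor width and a span within 20% of its own (like-span loops). The other 2 loops of this bin had 13 and 11 contacts. The next bin, 27205001 to 27210000, took 25 contacts (16.2 to 36.9) from 26240001 to 26245000 and 41 (29.4 to 55.6) from 25895001 to 25900000. The loop from 25895001 spanned 1310 kb and had been merged from 20 pixels. The farthest low-side loop began at 25770001, 1360 kb below the cluster, with 16 contacts.

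The HOXA13 end sent its loops into the high flank from 1 main anchor. The merged anchor at 27230001 to 27240000 held 8 loops, all to higher coordinates, the most of any anchor in the 2 windows. Their counts ran from 18 to 65, with spans of 150 to 980 kb. The highest counts were 65 (50.2 to 82.8) to 27615001 to 27620000 and 57 (43.2 to 73.9) to 27810001 to 27815000, against 13.6 and 10.7 expected. The highest ratios of this side were 7.47 and 7.45, to 27960001 to 27965000 with 49 contacts and to 28060001 to 28065000 with 44. These 2 far sites were joined by 40 contacts, which closed a triangle with the cluster. Of the other 3 loops of this side, 2 began at 27225001 to 27230000 with 35 and 24 contacts and 1 at 27245001 to 27250000 with 25. The farthest reached 970 kb above the cluster.

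The 2 sides of HOXA overlapped in strength. The ratio of observed to expected contacts had a median of 5.93 (order-statistic 95% interval 4.39 to 11.4, range 2.56 to 17.4) over the 12 low-side loops and of 4.40 (3.01 to 7.45, range 2.09 to 7.47) over the 11 high-side loops. The intervals overlap. The donut expectation of the 5 kb loops was a median of 2.22 times that of like-span loops on the high side and 1.62 times on the low side. High-side loops exceeded a median of 20.3% of like-span loops by ratio, and low-side loops 55.1%.

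**Figure D3:**
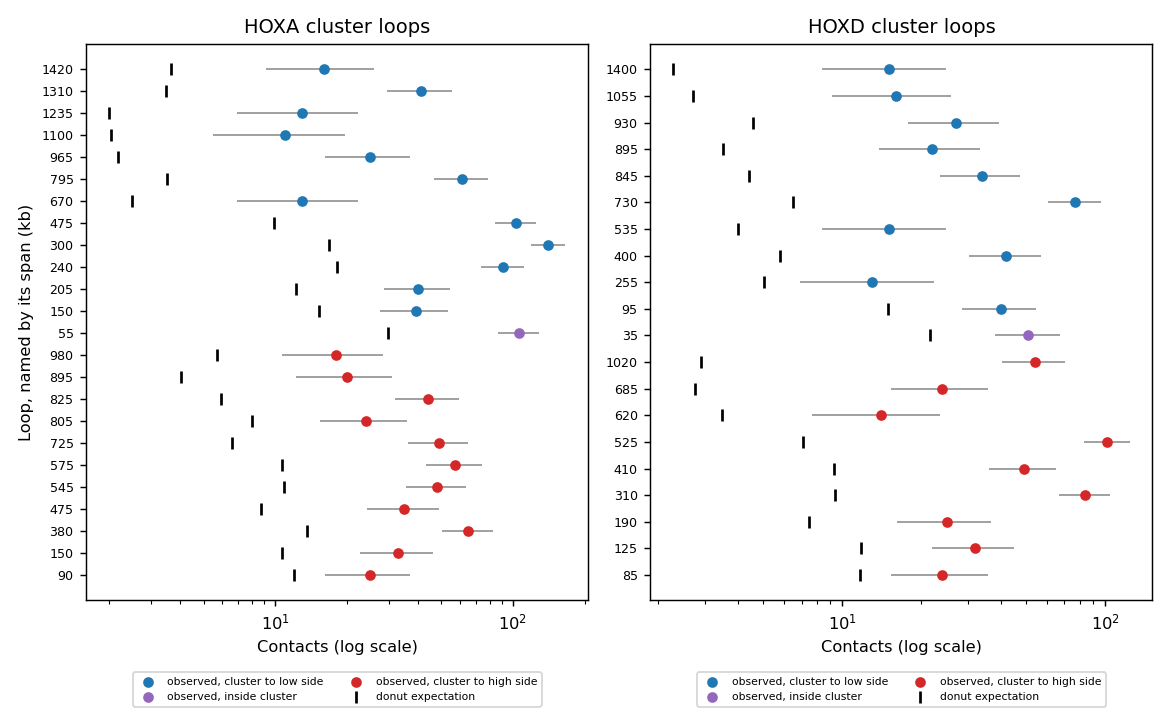
Observed contact counts (points, with exact Poisson 95% intervals as lines) and donut expectations (ticks) on a log axis for every loop with an anchor in the HOXA cluster (left) and the HOXD cluster (right), ordered by side and named by span in kb. Counts run from 11 to 141 in HOXA and from 13 to 102 in HOXD.

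At HOXD, the low-side loops converged on a single bin at the HOXD13 end. The anchor at 176960001 to 176965000 held 7 loops, all to lower coordinates, with spans of 95 to 1400 kb. The strongest came from 176230001 to 176235000, over 730 kb, with 77 contacts (60.8 to 96.2) against 6.50 expected. Its ratio of 11.9 exceeded 92.3% of like-span loops. The other 6 had 15 to 40 contacts, among them 34 (23.5 to 47.5) from 176115001 to 176120000 and 22 (13.8 to 33.3) from 176065001 to 176070000. Those 2 flank sites were joined by 26 contacts, so that they formed a triangle with the cluster. The neighbouring bins took the other 3 loops of this side. One of these, from 176550001 to 176555000 to 176950001 to 176955000, had 42 contacts (30.3 to 56.8) and 17 merged pixels.

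Most high-side loops of HOXD came from 2 bins with different reach. From 176990001 to 176995000, 3 loops went to 177515001 to 177520000, to 177675001 to 177680000 and to 178010001 to 178015000. They had 102 (83.2 to 124), 24 (15.4 to 35.7) and 54 (40.6 to 70.5) contacts against 7.11, 2.74 and 2.89 expected. The third, over 1020 kb, had the highest ratio of all 125 loops, 18.7, and exceeded 97.8% of like-span loops. From 177005001 to 177010000, 4 loops reached less far, 70 to 355 kb beyond the cluster. Of these, the loop to 177315001 to 177320000 had 84 contacts (67.0 to 104) against 9.35 expected and that to 177415001 to 177420000 had 49 (36.3 to 64.8) against 9.34. Of these bins, the one nearer to the HOXD13 end thus led to the farther sites. The remaining 2 loops of this side, from 176995001 and 177050001, had 14 and 24 contacts. Their highest q-values in the authors' deposited table were 0.423 and 0.609. Of the 4 loops from 177005001, those to 177130001 and 177195001 had highest q-values of 0.179 and 0.454. Each of the 4 q-values was at or below 0.1 in 5 of the 9 high-side loops (55.6%). This held for 8 of the 10 low-side loops (80%) and 72% of all loops.

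Inside the HOXD cluster 1 loop was listed, between 177020001 to 177025000 and 177055001 to 177060000, at the HOXD1 end, with 51 contacts (38.0 to 67.1) against 21.5 expected. Over the 9 high-side loops the ratio had a median of 5.25 (2.71 to 14.3), and over the 10 low-side loops one of 6.10 (2.69 to 7.70). The ranges were 2.05 to 18.7 and 2.58 to 11.9, so that the sides overlapped widely.

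**Figure D4:**
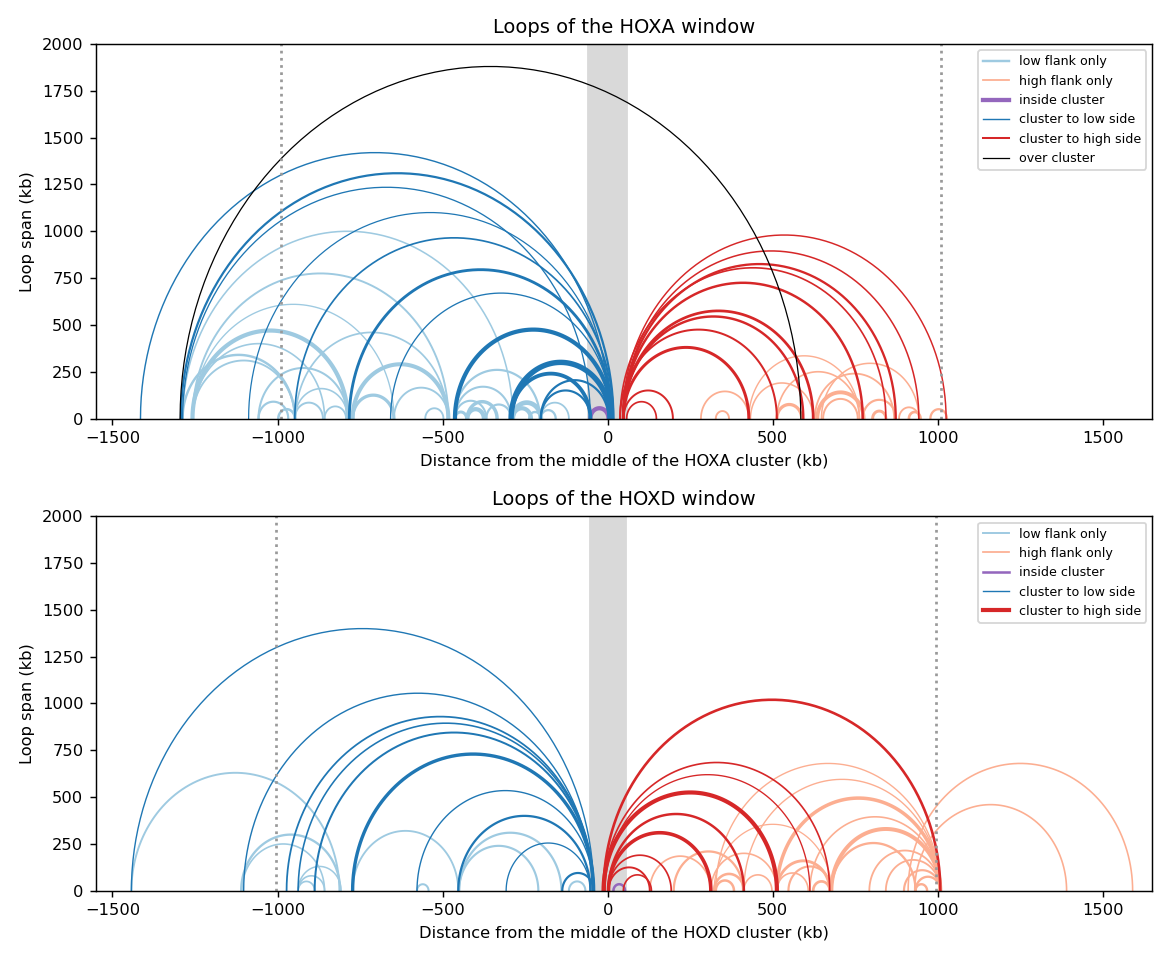
All loops of the HOXA window (top) and the HOXD window (bottom) as arcs whose height equals their span (y axis, kb), along the distance from the middle of the cluster (x axis, kb). Line width grows with the observed count, the cluster is shaded, dotted lines mark the window edges, and 1 arc passes over the HOXA cluster and 0 over the HOXD cluster.

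The flanks also held loops of their own. In the low flank of HOXA 30 loops did not touch the cluster, with a median of 38.5 contacts and a median ratio of 3.23. Their median span was 110 kb (85 to 270). In 10 of the 30 the other anchor lay outside the window, so this count depends on where the window ends. A chain of strong loops ran along this flank, beginning 265 kb below the window. In it, 103 contacts (84.1 to 125) joined 25930001 to 25935000 with 26400001 to 26405000 at a ratio of 14.9. A further 98 (79.6 to 119) joined 26415001 to 26420000 with 26705001 to 26710000 at 11.6. Next to the cluster, 119 contacts (98.6 to 142) joined 26900001 to 26905000 with 26985001 to 26990000, and 105 (85.9 to 127) joined 26900001 to 26905000 with 26955001 to 26960000. The anchors at 26980001 to 26990000 and 26240001 to 26250000 held 7 loops each, in both directions, and that at 26720001 to 26730000 held 5, all to higher coordinates. At least 2 loops were held by 27 of 59 anchors at HOXA (45.8%) and 22 of 46 at HOXD (47.8%), against 45.9% of all anchors in the list. Merged anchors with at least 5 loops made up 4 at HOXA (6.78%) and 3 at HOXD (6.52%), against 6.71% of all anchors.

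The high flank of HOXA held fewer loops of its own than the low flank, at a similar median span. Its 15 loops had a median span of 105 kb (50 to 240) and a median ratio of 2.90, with 92 contacts (74.2 to 113) at most. The other anchor lay outside the window in 1 of the 15. Of the 27 anchors in this flank, 0 held 5 loops. The flank's own loops spanned up to 335 kb, those from the cluster up to 980 kb, and the loop over the cluster 1880 kb.

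At HOXD the high flank held more loops of its own than the low flank. The low flank had 11 loops of its own and the high flank 24, with median ratios of 3.06 and 3.40. The other anchor lay outside the window in 3 of the 11 and in 11 of the 24, so these counts depend on where the window ends. On the high side 10 loops ended on 178010001 to 178015000, a site 10 kb beyond the window's edge, and all 10 came from lower coordinates. They had 15 to 96 contacts, with 96 (77.8 to 117) from 177680001 to 177685000 at a ratio of 11.4 and 82 (65.2 to 102) from 177515001 to 177520000 at 14.4. The list held 0 loops that ran from this site to higher coordinates. One of the 10 was the long cluster loop already described. This site, the anchor at 177515001 to 177520000 and the cluster anchor at 176990001 to 176995000 formed a triangle, with 102 contacts between the cluster and 177515001, 82 between 177515001 and 178010001 and 54 between the cluster and 178010001. A second triangle linked the cluster and 177515001 with 177675001 to 177680000. In all, 4 of 6 triangles at HOXD and 3 of 8 at HOXA had a corner in the cluster.

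As a set, the 125 loops had a longer median span than the rest of the list and a similar median ratio. Against loops of like span, their ratios ranked lower. The median span was 240 kb (165 to 310) in members and 160 kb (155 to 160) in the remaining 46724 loops. Spans over 1 Mb were found in 8 members (6.40%), against 3.77% of all loops. The rule asks for at least 1 anchor in a window, which favours long loops, while asking for both favours short ones. With both anchors inside the window, the median span was 150 kb at HOXA and 195 kb at HOXD. The median ratio was 3.70 (3.19 to 4.11) in members and 3.55 (3.53 to 3.58) in the rest, so that the intervals overlap. Against like-span loops, 10 members (8%) reached the 90th percentile of the ratio, against 10.2% of all loops. The median member exceeded 38.5% of its like-span loops, against 50.9% in the rest of the list. Of the 10 members at or above the 90th percentile, 5 had an anchor in a cluster: the HOXA loops of 475 and 795 kb and the HOXD loops of 525, 730 and 1020 kb. They were 2 of the 24 loops with a HOXA cluster anchor (8.33%) and 3 of the 20 with a HOXD cluster anchor (15%). Both shares lie near the 10.2% of all loops, given the small counts. Cluster loops were also found at the other end. The HOXA cluster loop of 805 kb exceeded 0.414% of like-span loops, and the HOXD cluster loop of 255 kb exceeded 1.30%. The donut expectation of 5 kb member loops was a median of 1.21 times that of like-span loops, against 0.986 in the rest. Each of the 4 q-values of the authors' deposited table was at or below 0.1 in 92 members (73.6%, against 72% of all loops), 115 members (92.0%) shared an anchor with another loop (89.7% of all), and 36 (28.8%) were part of a closed triangle (27.7% of all). These shares lie near those of the whole list. Loops that share an anchor are not independent, and none of these differences was tested.

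**Figure D5:**
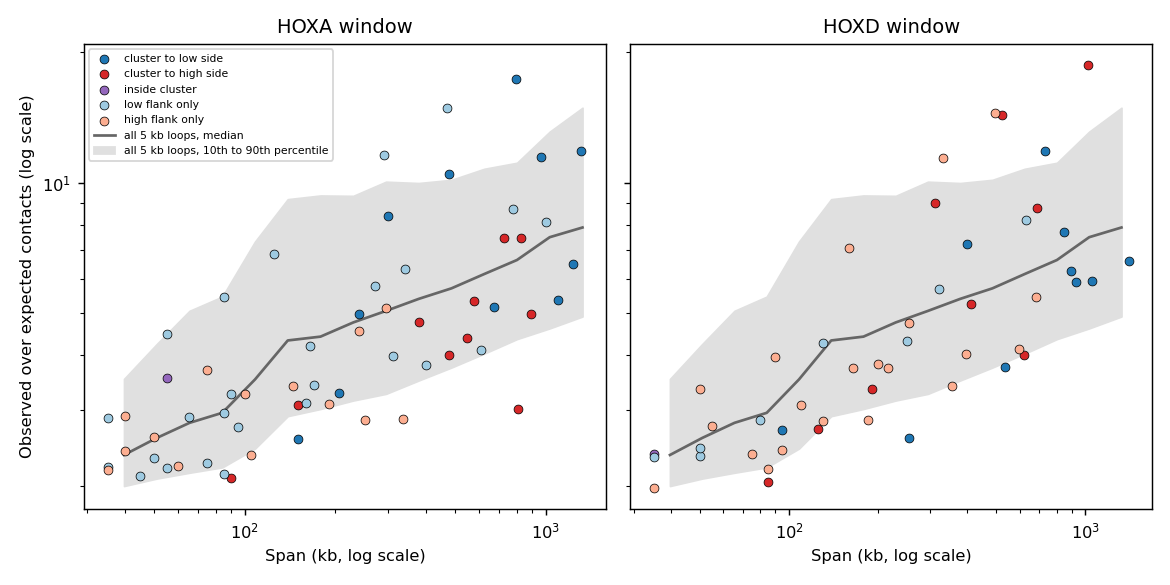
Ratio of observed to donut expected contacts (y axis, log scale) against span (x axis, log scale) for members with 5 kb anchors in the HOXA window (left) and the HOXD window (right), with the median and the 10th to 90th percentile of all 5 kb loops as line and grey band. Most members lie inside the band. Those above it include the HOXA cluster loop of 795 kb and the HOXD cluster loop of 1020 kb. Flank loops such as those of 470 kb at HOXA and 495 kb at HOXD also lie above it. Members below it include the HOXA cluster loop of 805 kb and the HOXD cluster loop of 255 kb.

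Median values of the 2 windows were close to each other. HOXA loops had a median ratio of 3.48 (3.11 to 4.39), a median span of 222.5 kb and a median of 36.5 contacts, and HOXD loops 3.75 (3.06 to 4.32), 255 kb and 32 contacts. At the edges the windows were set by position alone. The nearest loops left out were a loop of 60 kb with 52 contacts, 5 kb below the HOXA window, and one of 170 kb with 142 contacts and a ratio of 15.2, 25 kb above the HOXD window. Of the list's loops, 0 passed over a whole window.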

How the data were processed

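Micro-C loops of HAP1 cells were used as the authors deposited them, in 1 list pooled from 6 replicates. BWA and hg19 are named in the submitters' processing notes, and juicer_tools 1.22.01 per the file headers; neither the caller's settings nor the depth of any library is given in the sources used here. The deposited values were the observed raw count of each loop's pixel, the expected count from the donut and lower-left surroundings, a q-value against each of 4 surroundings (those and the horizontal and vertical ones), and the merged pixels and radius. Counts had a median of 31 and a minimum of 8 over all loops, which sets their precision. Intervals cover counting error only.

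Windows and clusters were read from the rule, and members and comparisons were chosen with earlier results of these data known. Each loop's ratio divides its observed count by the donut expectation, and its span runs between the midpoints of its anchors. Anchors overlapping by at least 1 bp were merged. Named loops were those with a cluster anchor and, per window, the 5 highest ratios (expectation at least 1) and counts, the 3 longest and the 5 anchors with most loops; flank loops that complete a pattern were added after their values were seen, as were the gap between sides, the tiles of cluster length and the placing of anchors about the cluster middle. Shares have exact Clopper-Pearson, counts exact Poisson and medians order-statistic intervals, at 95%. Functions were tested on simulated data. GRCh38.p14 tables from RefSeq gave gene names, gene order and sequences only. Alternatives covered anchor width, q-values, counts, pixels, cluster ends, window membership, expectation and anchor merging. Figures were drawn with matplotlib 3.10.9, and values computed in Python 3.11.15 with scipy 1.17.1, pandas 2.3.3 and numpy 2.4.6.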

Additional observations from a re-analysis of the deposited data

How the results depend on the processing

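No paired analysis was possible because the 6 replicates are pooled in the list, and no replicate could be left out. Of 74 values recomputed under other settings for 14 results, 67 stayed within 1.5 times the count reported or within the interval of the share or median. Those for the 0 loops over the HOXD cluster could not change, because each setting only removed loops or widened the cluster. With at least 20 contacts the share of one-sided cluster loops that ran low was 44.4% at HOXA, against 52.2%, and 42.9% at HOXD, against 52.6%, so the side with more loops turned in both clusters, within the wide interval of each share. With loops of at least 2 pixels it was 50% at HOXD. The single loop over the HOXA cluster was missing (0 loops) with 5 kb anchors, with each q-value at or below 0.1, with at least 20 contacts, and with both anchors in the window. With each q-value at or below 0.1 the median ratio of the HOXD window was 4.53 over the 38 loops left, against 3.75 over 55. With anchors up to 10 kb apart merged, 61.8% of HOXA anchors and 65.5% of HOXD anchors held at least 2 loops, against 45.8% and 47.8%. The gap between the sides, an alternative set chosen after seeing the data, was 15 kb in HOXA and 25 kb in HOXD under each setting that only removed loops. Such settings cannot narrow the gap, so they do not probe it. Only the use of the centres of the merged pixels could have narrowed it, and this gave 9.25 kb in HOXA and 30 kb in HOXD. Loops under about 20 contacts have wide counting intervals, and a loop under the caller's thresholds is not in the list, so a missing loop is not a missing contact.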
